A study of Danio rerio with 12 samples.

Results

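Potassium channels and connexins, the proteins of gap junctions, were examined in the regenerating caudal fin of the zebrafish. Members were all rows of the mRNA table whose Ensembl gene name starts with kcn, or with cx or gj followed by a connexin number, in upper or lower case. This gave 39 of 16951 genes, of which 25 are potassium channel genes or their accessory subunits and 14 are connexins. Regenerates of adult Ekkwill fish at 4 days post-amputation (dpa) were compared with uninjured fin tissue taken at 0 dpa from fish of the same line. Each day had 3 strand-specific polyA+ libraries, each made from several pooled fins after scalpel amputation under anesthesia. By 4 dpa the fin has formed a blastema, the proliferative mass from which it regrows, and how much older fin was collected with it is not given in the sources used here.

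Potassium channels let potassium leave the cell and so set the resting voltage of its membrane, while gap junctions are channels between neighbouring cells that pass ions and small molecules. Both are known from zebrafish mutants to control fin size. Loss of cx43 function in short fin mutants gives short bony rays, and gain of function of the leak channel kcnk5b in another longfin mutants gives overgrown fins. The voltage-gated channel kcnh2a is active in the wrong place in longfin fish. In the skin, cx41.8, cx39.4 and kcnj13 are needed for the normal stripe pattern.

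The rule did not use the expression values. Depth ran from 17928712 to 24557820 reads a library at 4 dpa and from 20839447 to 25223147 at 0 dpa. Members ran from 2 to 8426 reads in a library, and 10 of the 39 had under 50 reads in each library. Levels are in CPM, read counts scaled to a common size with the authors' adjusted library sizes. They are not corrected for transcript length, so tests compare each gene only with itself, and shares or rankings by CPM describe reads, not transcripts. A log2 change is 4 dpa over 0 dpa on the log2(CPM + 1) scale, which understates changes of genes at low CPM. A gene is called when its limma adjusted p, over all 16951 genes, is under 0.05.

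Of the 39 members, 27 were called, 13 as higher and 14 as lower at 4 dpa (69.2%). Over all genes 62.1% were called, 31.0% as higher and 31.2% as lower, so the share among the members was near that of the table. Connexins had 4 higher and 7 lower of 14, with a median log2 change of −0.47. Potassium channel genes had 9 higher and 7 lower of 25, with a median of −0.21. The median of all genes was −0.00. When a 2-fold difference on the log2(CPM + 1) scale was also required, 8 of 14 connexins (57.1%) and 5 of 25 potassium channel genes passed. Of all genes 21.7% did. Several called potassium channel genes missed this minimum although their mean CPM differed more than 2-fold, such as KCNJ2 (2.56-fold higher) and KCNE4 (2.23-fold lower). No called connexin did so, and the gap between the groups thus depends in part on the scale. Scaled to total reads, which moved the median of all genes to 0.24, the split was 5 higher and 5 lower for connexins and 11 higher and 5 lower for potassium channel genes, with 7518 higher and 3595 lower over all genes. In 28 of the 39 (71.8%) no library at 4 dpa fell within the range at 0 dpa or the reverse, where all genes gave 68.1%.

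**Figure D1:**
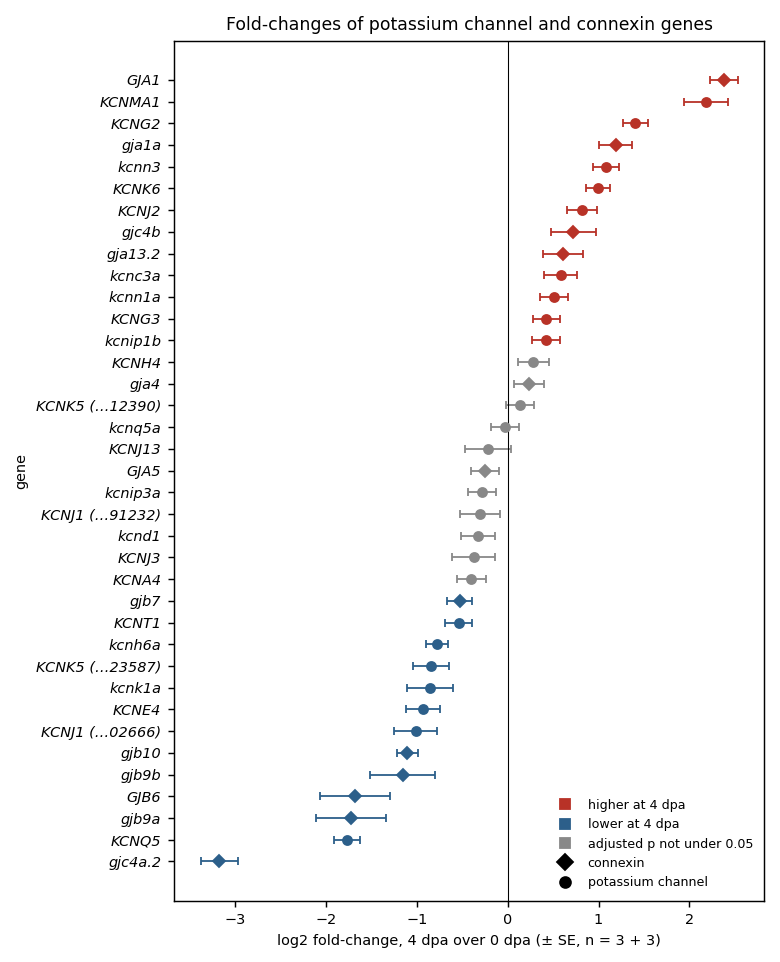
Log2 fold-change (4 dpa over 0 dpa, ± SE, 3 libraries a day) of 37 of the genes, with connexins as diamonds and potassium channel genes as circles. Red marks the 13 genes called higher at 4 dpa, blue 13 called lower and grey 11 not called, and the range runs from −3.17 for gjc4a.2 to 2.38 for GJA1.

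The alpha connexins included the largest rise of any member. GJA1 (ENSDARG00000041799), which the study's annotation names cx43, encodes the most widely expressed vertebrate connexin. It had 192, 144 and 191 CPM at 4 dpa and 34.9, 27.6 and 37.9 CPM at 0 dpa. Each pooled library at 4 dpa thus exceeded each at 0 dpa several-fold. The means were 176 ± 27.0 CPM at 4 dpa and 33.4 ± 5.31 CPM at 0 dpa (SD, n = 3 each). The log2 change was 2.38 (± 0.15 SE and adjusted p = 7.31e-06 by limma), a ratio of mean CPM of 5.25.

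Its named copy gja1a (ENSDARG00000071192) also rose, at far fewer reads. It had 64, 74 and 95 reads at 4 dpa and 11, 22 and 22 reads at 0 dpa, without overlap of the CPM. The log2 change was 1.19 (± 0.18 SE and adjusted p = 0.000659 by limma). How the counting divided reads that match both copies is not known, so the value of gja1a is uncertain.

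The alpha connexin gja13.2 (ENSDARG00000076789), which lies next to gja1b in RefSeq gene order (the RefSeq name for cx43), had 4.87, 8.27 and 4.41 CPM at 4 dpa and 3.38, 2.78 and 4.19 CPM at 0 dpa. It was called as higher by 0.61 (± 0.22 SE and adjusted p = 0.0387 by limma). Replicate 2 at 4 dpa was far above the other libraries, and without it the value was 0.37 (adjusted p = 0.0977 by limma). The call was also lost without 0 dpa replicate 1 (0.0603) or replicate 2 (0.115), with limma-voom (0.0519) and with a replicate block (0.0581), in a range of 0.00944 to 0.115 over the alternatives.

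The remaining alpha connexins are gja4, which RefSeq also lists as cx39.4, and GJA5, a name that in zebrafish covers cx41.8 and a second copy not told apart here. In mammals both are connexins of blood vessel endothelium. gja4 (ENSDARG00000070357) had 3.73, 5.22 and 3.91 CPM at 4 dpa and 2.85, 3.53 and 4.34 CPM at 0 dpa. GJA5 (ENSDARG00000069450) had 0.997, 0.930 and 1.38 CPM at 4 dpa and 1.59, 1.21 and 1.80 CPM at 0 dpa. The days overlapped in both. The log2 changes were 0.23 (± 0.16 SE and adjusted p = 0.254 by limma) for gja4 and −0.25 (± 0.15 SE and adjusted p = 0.182 by limma) for GJA5, and neither was called. Scaled to total reads, gja4 was called as higher (0.0361), in a range of 0.0361 to 0.597.

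The 5 beta connexins described here moved the other way, with 5 of 5 called as lower, where 31.2% of all genes were. In each of the 5 the libraries at 4 dpa lay below those at 0 dpa, which held for 5743 of all 16951 genes. Scaled to total reads, all 5 were still lower in value but 3 were called. GJB6 carries the name of a human skin connexin that is mutated in an inherited skin disorder.

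GJB6 (ENSDARG00000042707) had 34.1, 48.1 and 52.9 CPM at 4 dpa and 73.1, 242 and 176 CPM at 0 dpa. The uninjured libraries spread widely, with replicate 1 lowest. The log2 change was −1.68 (± 0.39 SE and adjusted p = 0.00544 by limma), and it ran from −2.17 to −1.32 when a library was left out, with the larger fall without 0 dpa replicate 1.

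The connexin gjb10 (ENSDARG00000075854), cx34.4 in the study's annotation, had 18.7, 22.0 and 22.5 CPM at 4 dpa and 42.9, 52.5 and 45.7 CPM at 0 dpa. The libraries of a day lay close together, with a log2 change of −1.10 (± 0.11 SE and adjusted p = 7.75e-05 by limma).

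The copies gjb9a (ENSDARG00000003925) and gjb9b (ENSDARG00000070362) were both lower. gjb9a had 33, 22 and 16 reads at 4 dpa and 233, 82 and 72 reads at 0 dpa, a log2 change of −1.73 (± 0.39 SE and adjusted p = 0.00485 by limma). gjb9b had 8.97, 16.0 and 5.21 CPM at 4 dpa and 31.9, 18.0 and 18.3 CPM at 0 dpa, a log2 change of −1.15 (± 0.36 SE and adjusted p = 0.0217 by limma). In both genes 0 dpa replicate 1 was the highest library. The call of gjb9b was lost without 4 dpa replicate 1 (0.0549), without 4 dpa replicate 3 (0.0659) and with scaling to total reads (0.0566), in a range of 0.00483 to 0.0659. A further beta connexin, gjb7 (ENSDARG00000071042), had 36, 35 and 42 reads at 4 dpa and 60, 52 and 56 reads at 0 dpa and fell by 0.53 (± 0.14 SE and adjusted p = 0.0105 by limma), a call lost when scaled to total reads (0.0617), in a range of 0.00841 to 0.0617.

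Of the gamma connexins, gjc4a.2 and gjc4b went in opposite directions. gjc4a.2 (ENSDARG00000094990) had the largest fall of any member, with 3.54, 5.79 and 2.68 CPM at 4 dpa and 40.0, 44.8 and 45.3 CPM at 0 dpa. The mean was 10.8-fold lower at 4 dpa, and the log2 change was −3.17 (± 0.20 SE and adjusted p = 6.95e-06 by limma). gjc4b (ENSDARG00000007099), cx43.4 in the study's annotation, had 2715, 1484 and 2431 reads at 4 dpa and 1569, 849 and 1017 reads at 0 dpa. The days overlapped, because 0 dpa replicate 1 exceeded 4 dpa replicate 2, with 76.7 CPM in 4 dpa replicate 2 and 82.9 CPM in 0 dpa replicate 1. The log2 change was 0.72 (± 0.25 SE and adjusted p = 0.0327 by limma), and the call was lost when any of 4 libraries was left out (4 dpa replicates 1 and 3, 0 dpa replicates 2 and 3), in a range of 0.000375 to 0.0979.

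**Figure D2:**
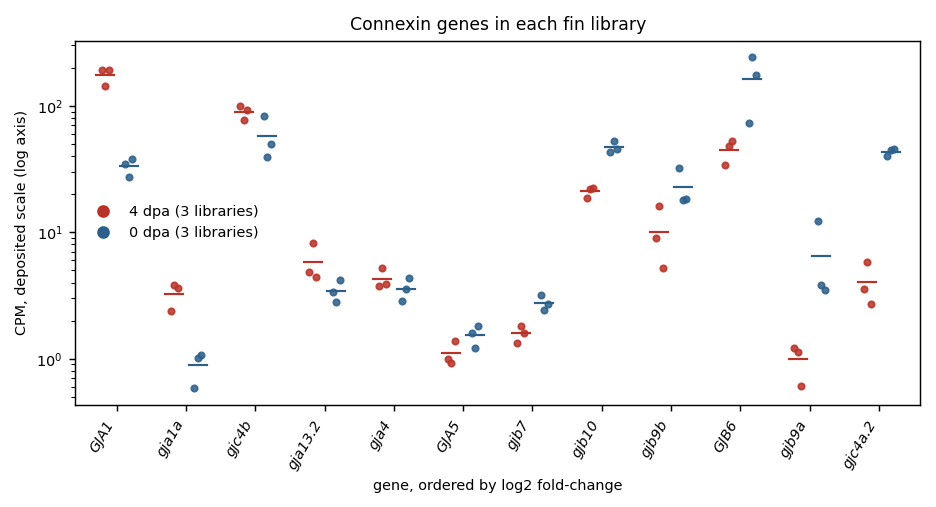
CPM on a log axis of 12 connexin genes in each library, with 4 dpa in red left of 0 dpa in blue, and bars at the means of 3 libraries. GJA1 stands at 144 to 192 CPM at 4 dpa, above its 27.6 to 37.9 CPM at 0 dpa, and gjc4a.2 at 2.68 to 5.79 CPM, below its 40.0 to 45.3 CPM at 0 dpa.

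The make-up of the connexin reads, uncorrected for transcript length, changed accordingly. GJA1 made up 35.0% ± 4.62 of connexin CPM at 4 dpa and 4.83% ± 1.31 at 0 dpa (SD, n = 3 each). GJB6 made up 9.01% ± 2.01 at 4 dpa and 22.2% ± 9.11 at 0 dpa. The sum over the connexins was 508, 487 and 507 CPM at 4 dpa and 616, 831 and 687 CPM at 0 dpa. Without GJA1 it was 316, 342 and 316 CPM at 4 dpa and 581, 803 and 649 CPM at 0 dpa. With the authors' adjusted library sizes, the regenerates were thus lower in total connexin CPM although GJA1 was higher. Per total reads the days overlapped in the sum over all connexins, with 4 dpa replicate 1 just above 0 dpa replicate 1. That fall therefore depends on the scaling. Without GJA1 the sum was lower in each library at 4 dpa with either scaling. As the shares were computed from the same values, they are no further evidence for single genes.

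**Figure D3:**
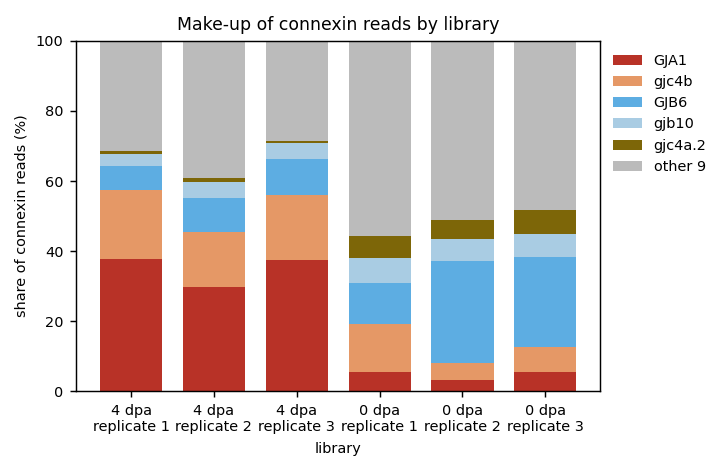
Share of connexin CPM (%) held by each of 5 connexins and by the other 9 together in each library, with the 3 libraries at 4 dpa left of the 3 at 0 dpa. GJA1 holds 29.7 to 37.7% at 4 dpa and 3.32 to 5.66% at 0 dpa, and values are not corrected for transcript length.

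Of 4 potassium channel genes opened by calcium or sodium, 3 were called as higher at 4 dpa and 1 as lower. Over all genes 31.0% were called as higher and 31.2% as lower. The 3 higher genes were those opened by calcium. KCNMA1 (ENSDARG00000079840) encodes the pore of the large-conductance BK channel, which opens with calcium and depolarization. It had 9.64, 9.45 and 12.3 CPM at 4 dpa and 0.952, 2.78 and 1.22 CPM at 0 dpa, without overlap. Its log2 change, 2.18 (± 0.24 SE and adjusted p = 0.000113 by limma), was the largest of the 25. The small-conductance SK channels kcnn3 (ENSDARG00000019753) and kcnn1a (ENSDARG00000091306) were at low counts. kcnn3 had 43, 35 and 40 reads at 4 dpa and 2, 10 and 5 reads at 0 dpa, a log2 change of 1.08 (± 0.14 SE and adjusted p = 0.000280 by limma). kcnn1a had 29, 25 and 42 reads at 4 dpa and 12, 19 and 9 reads at 0 dpa, a log2 change of 0.51 (± 0.15 SE and adjusted p = 0.0188 by limma). Its call was lost without 4 dpa replicate 3 (0.0651) or 0 dpa replicate 3 (0.0635), in a range of 0.00546 to 0.0651. KCNT1 (ENSDARG00000079484), a channel opened by sodium, was lower, with 3.99, 3.36 and 2.80 CPM at 4 dpa and 4.65, 6.22 and 5.46 CPM at 0 dpa. Its log2 change was −0.54 (± 0.15 SE and adjusted p = 0.0125 by limma), a call lost when scaled to total reads (0.0916), in a range of 0.00906 to 0.0916.

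Of 9 voltage-gated genes, 3 were called as higher and 2 as lower (55.6% called, against 62.1% of all genes), a share no larger than that of the table. KCNG2 and KCNG3 encode modifier subunits that form channels only together with other voltage-gated subunits. KCNG2 (ENSDARG00000035961) had 5.32, 5.53 and 6.06 CPM at 4 dpa and 1.22, 1.58 and 1.85 CPM at 0 dpa. The days were well apart, with a log2 change of 1.41 (± 0.13 SE and adjusted p = 5.46e-05 by limma). kcnc3a (ENSDARG00000055855), from a family of fast channels of firing neurons, had 31, 41 and 26 reads at 4 dpa and 11, 12 and 14 reads at 0 dpa. It was called as higher by 0.58 (± 0.18 SE and adjusted p = 0.0216 by limma). Without 4 dpa replicate 2 the value was 0.39, and without 0 dpa replicate 2 it was not called (0.0573), in a range of 0.00900 to 0.0573. KCNG3 (ENSDARG00000061622) had 27, 30 and 24 reads at 4 dpa and 9, 17 and 12 reads at 0 dpa. Its log2 change of 0.43 (± 0.15 SE and adjusted p = 0.0387 by limma) was lost without 4 dpa replicate 1 or 2, without 0 dpa replicate 1 or 3, with quantile normalization and with limma-voom, in a range of 0.0128 to 0.106.

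The largest fall of a potassium channel gene was in KCNQ5 (ENSDARG00000069953), named kcnq5b in the study's annotation. It belongs to the family that carries the M-current, which damps the firing of neurons. It had 2.33, 3.31 and 3.64 CPM at 4 dpa and 12.1, 13.5 and 13.4 CPM at 0 dpa. Every library at 0 dpa was above every library at 4 dpa, with a log2 change of −1.77 (± 0.15 SE and adjusted p = 2.66e-05 by limma). kcnh6a (ENSDARG00000001803), an ERG-type channel, had 2.36, 2.01 and 1.92 CPM at 4 dpa and 3.97, 4.64 and 4.53 CPM at 0 dpa. It fell by 0.78 (± 0.12 SE and adjusted p = 0.000752 by limma). KCNH4, kcnq5a, kcnd1 and KCNA4 were not called, with log2 changes of 0.28, −0.03, −0.32 and −0.40. KCNA4 (ENSDARG00000078650) was near the threshold (0.0555) and was called with the unshifted values (0.0492), with quantile normalization (0.0452) and without 0 dpa replicate 1 (0.0363), in a range of 0.0363 to 0.178. KCNH4 was called as higher when scaled to total reads (0.0198), in a range of 0.0198 to 0.494.

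The tandem-pore channels carry the background leak that holds the resting voltage. KCNK6 (ENSDARG00000007383) had 17.1, 18.5 and 17.6 CPM at 4 dpa and 8.72, 9.93 and 7.12 CPM at 0 dpa. Its libraries were tight within each day, and the log2 change was 1.00 (± 0.13 SE and adjusted p = 0.000260 by limma). kcnk1a (ENSDARG00000045067) had the most CPM of the 25, uncorrected for length, and was lower, with 35.8, 45.0 and 38.8 CPM at 4 dpa and 50.8, 114 and 68.8 CPM at 0 dpa. The log2 change was −0.85 (± 0.25 SE and adjusted p = 0.0170 by limma). It rested in part on 0 dpa replicate 2, without which it was −0.55 (0.0201), and the call was lost without 4 dpa replicate 1 (0.0555) or 3 (0.0515) and with scaling to total reads (0.0586), in a range of 0.00126 to 0.0586.

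The name KCNK5 is shared by 2 rows, and the sources used here do not say which is kcnk5b. One, ENSDARG00000023587, had 9.97, 13.3 and 9.66 CPM at 4 dpa and 27.4, 19.8 and 16.1 CPM at 0 dpa. It fell by 0.85 (± 0.20 SE and adjusted p = 0.00620 by limma), without overlap. Per total reads the days overlapped, with a log2 change of −0.58 (adjusted p = 0.0322 by limma). The other KCNK5 row, ENSDARG00000012390, had 17.7, 22.7 and 18.9 CPM at 4 dpa and 16.5, 22.7 and 15.8 CPM at 0 dpa. The days overlapped, with a log2 change of 0.13 (± 0.15 SE and adjusted p = 0.477 by limma), and it was called as higher, of the alternatives, only when scaled to total reads (0.0357), in a range of 0.0357 to 0.868. kcnh2a was not analysed here.

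The inward rectifiers pass potassium best near the resting voltage. KCNJ13 (ENSDARG00000043443), the stripe and fin gene, had 7.38, 15.5 and 10.1 CPM at 4 dpa and 16.1, 11.6 and 10.6 CPM at 0 dpa. The libraries of the days were interleaved, and the log2 change of −0.21 (± 0.25 SE and adjusted p = 0.476 by limma) was not called. KCNJ2 (ENSDARG00000019418), a strong rectifier of muscle and vessel cells in mammals, had 71, 33 and 74 reads at 4 dpa and 15, 20 and 22 reads at 0 dpa. It was higher by 0.82 (± 0.16 SE and adjusted p = 0.00269 by limma). KCNJ1, the ROMK channel that secretes potassium in the mammalian kidney, was present as 2 rows. ENSDARG00000002666 had 23, 11 and 22 reads at 4 dpa and 80, 48 and 35 reads at 0 dpa, a log2 change of −1.01 (± 0.24 SE and adjusted p = 0.00611 by limma). The other KCNJ1 row, ENSDARG00000091232, had 9.49, 12.6 and 6.94 CPM at 4 dpa and 10.6, 15.8 and 10.3 CPM at 0 dpa and was not called, with a log2 change of −0.30 (0.259). KCNJ3 (ENSDARG00000062217), a G protein-gated channel, was not called at −0.38 (0.195), but was called as lower without 4 dpa replicate 3 (0.0119), in a range of 0.0119 to 0.609.

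Of the accessory subunits, KCNE4 (ENSDARG00000068257), which inhibits some voltage-gated channels, had 2.92, 3.98 and 3.45 CPM at 4 dpa and 5.50, 9.37 and 8.24 CPM at 0 dpa. It fell by 0.93 (± 0.19 SE and adjusted p = 0.00277 by limma), without overlap of the days. kcnip1b and kcnip3a encode calcium sensors that bind voltage-gated channels of the A type. kcnip1b (ENSDARG00000034808) had 39, 33 and 27 reads at 4 dpa and 13, 23 and 14 reads at 0 dpa. Its log2 change of 0.42 (± 0.15 SE and adjusted p = 0.0433 by limma) was the weakest call and was lost with the unshifted values, with limma-voom and without 4 dpa replicate 1 or 2 or 0 dpa replicate 1 or 3, in a range of 0.0121 to 0.123. kcnip3a was not called, at −0.28 (0.132).

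**Figure D4:**
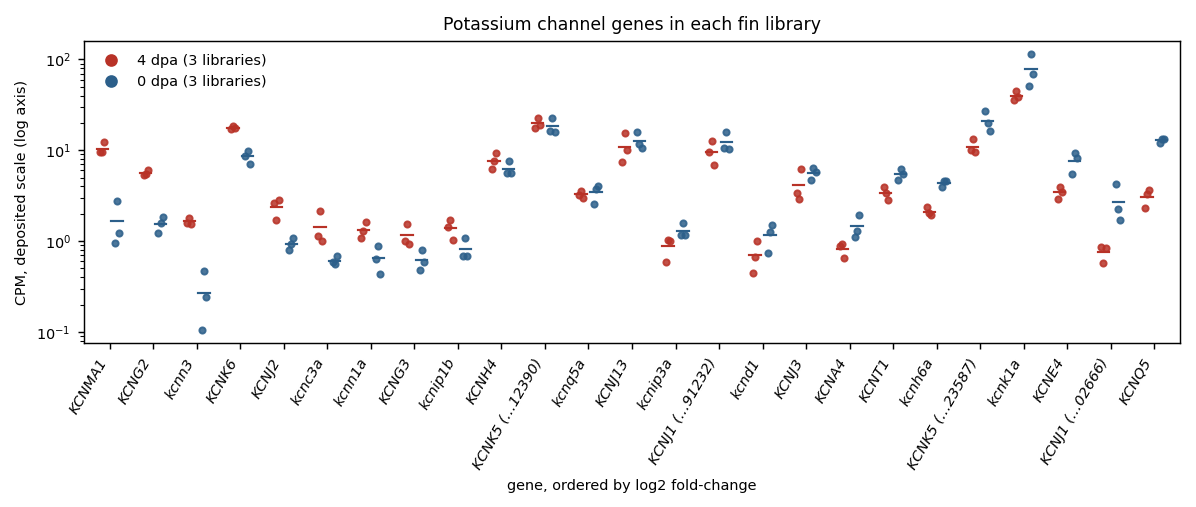
CPM on a log axis of the 25 potassium channel genes in each library, with 4 dpa in red left of 0 dpa in blue, and bars at the means of 3 libraries. KCNMA1 stands at 9.45 to 12.3 CPM at 4 dpa, above its 0.952 to 2.78 CPM at 0 dpa, and KCNQ5 at 2.33 to 3.64 CPM, below its 12.1 to 13.5 CPM at 0 dpa.

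Several names occur as pairs of copies, and 5 pairs were compared in each library. The value taken was the difference of their log2(CPM + 1) values, subtracting the copy named last. It is not a ratio of plain CPM, from which it departs where a copy is at low CPM. For KCNQ5 over kcnq5a it was −0.35, −0.08 and 0.22 at 4 dpa, against 1.87, 1.60 and 1.51 at 0 dpa. For the KCNK5 row that fell over the other KCNK5 row it was −0.77, −0.73 and −0.90 at 4 dpa, against 0.70, −0.19 and 0.02 at 0 dpa. For GJA1 over gja1a it was 5.84, 4.91 and 5.37 at 4 dpa, against 4.50, 3.82 and 4.23 at 0 dpa, with gja1a at few reads. On this scale the days did not overlap in these 3 pairs. An exact permutation test, two-sided, gave p = 0.1 for each, the smallest that 3 libraries against 3 allow (0.167 adjusted over the 5 pairs). On the same log2(CPM + 1) scale the days overlapped for the KCNJ1 rows (exact permutation p = 0.2) and for gjb9a and gjb9b (exact permutation p = 0.3). As this test cannot reach 0.05 with 3 libraries a day, it does not say whether the copies of any pair moved apart. The differences are given as a description. Ratios of plain CPM were not tested, and their overlap differed for pairs with gja1a, gjb9a or the KCNJ1 row ENSDARG00000002666, which were at low CPM. In plain CPM the days overlapped for GJA1 over gja1a, but not for the KCNJ1 rows or for gjb9a over gjb9b. Which of these pairs overlapped thus depends on the scale. For the KCNQ5 and KCNK5 pairs the days did not overlap on either scale.

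The sum over the 25 potassium channel genes was 148, 183 and 163 CPM at 4 dpa and 182, 260 and 189 CPM at 0 dpa. The days overlapped, since 4 dpa replicate 2 exceeded 0 dpa replicate 1.

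Genes tied to cx43 in fin growth were then read from a list of names, of which 18 rows were in the table. Of these, 13 were called as higher and 3 as lower, with a median log2 change of 1.47 (88.9% called, against 62.1% of all genes). This list and the ion transport and calcineurin list below were fixed with earlier results of these data known. Their shares of calls are thus a description only. SEMA3D and hapln1a act downstream of cx43 in the fin. The guidance ligand SEMA3D (ENSDARG00000017369) had 19.4, 14.3 and 18.7 CPM at 4 dpa and 2.27, 2.97 and 3.07 CPM at 0 dpa, and rose by 2.31 (± 0.15 SE and adjusted p = 7.70e-06 by limma). Its receptor genes PLXNA3 and 2 rows named NRP2 rose by 1.88, 2.34 and 2.28. The hyaluronan link protein gene hapln1a (ENSDARG00000089769) had 292, 277 and 294 CPM at 4 dpa and 192, 268 and 223 CPM at 0 dpa, with only a small gap between the days, and a log2 change of 0.37 (± 0.12 SE and adjusted p = 0.0251 by limma). The other copy, HAPLN1 (ENSDARG00000068516), had 12.8, 11.7 and 15.9 CPM at 4 dpa and 0.740, 0.974 and 0.439 CPM at 0 dpa. This was the largest rise of the list, at 3.09 (± 0.17 SE and adjusted p = 2.96e-06 by limma).

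Of the other listed genes, the hyaluronan synthases HAS1 and HAS2 rose by 1.65 and 1.92 and the proteoglycan gene vcanb by 1.36. ESCO2, an acetyltransferase of cohesin, rose by 1.19, while SMC3, a cohesin subunit, was not called at 0.05. The laminin chain LAMA5 rose by 2.85 and CTNNB1, which encodes beta-catenin, by 1.32. An integrin chain was found as 2 rows named ITGB3, which differed in sign. ENSDARG00000056767 fell by 1.08 (± 0.10 SE and adjusted p = 3.76e-05 by limma), the largest fall of the list, with 79.0, 87.2 and 98.1 CPM at 4 dpa and 189, 189 and 191 CPM at 0 dpa. The ITGB3 row ENSDARG00000045070 rose by 1.59. TJP1, a scaffold that binds connexins at the membrane, fell by 0.51 and the hyaluronan receptor cd44a by 0.48, and tjp1b was not called at −0.11. Scaled to total reads, 14 genes of this list were called as higher and 1 as lower. In that fit 7518 of all genes were called higher and 3595 lower. The 1 lower call left was the ITGB3 row ENSDARG00000056767 (−0.80 and adjusted p = 0.000146 by limma), and TJP1 and cd44a lost theirs.

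Other genes of ion transport and of calcineurin, the calcium-dependent phosphatase that restrains fin outgrowth, gave 8 higher and 4 lower of 17 (70.6% called, against 62.1% of all genes). Scaled to total reads they gave 10 higher and 3 lower, in a fit where 7518 of all genes were called higher and 3595 lower. The proton pump subunits atp6v1e1b and ATP6V1A (2 rows) rose by 0.91, 1.15 and 0.50, while atp6v1e1a, the other copy of atp6v1e1b, was not called at −0.19 (0.0994). The potassium-chloride cotransporter slc12a7a (ENSDARG00000073756) had 24.1, 24.1 and 24.0 CPM at 4 dpa and 34.7, 30.3 and 27.9 CPM at 0 dpa, and fell by 0.33 (± 0.10 SE and adjusted p = 0.0238 by limma). Per total reads the days overlapped, so this fall depends on the scaling. The other copy of slc12a7a, SLC12A7, was higher by 0.41. The calcineurin modulators RCAN2 (ENSDARG00000021869) and RCAN3 (ENSDARG00000032623) were the largest rise and the largest fall of the list, at 1.18 (± 0.18 SE and adjusted p = 0.000641 by limma) and −1.60 (± 0.28 SE and adjusted p = 0.00138 by limma). RCAN2 had 69.0, 59.5 and 76.4 CPM at 4 dpa and 39.7, 25.4 and 26.1 CPM at 0 dpa. RCAN3 had 11.2, 12.4 and 12.2 CPM at 4 dpa and 22.3, 48.7 and 52.7 CPM at 0 dpa, with 0 dpa replicate 1 nearest to the regenerates in both. The calcineurin catalytic subunit ppp3ca fell by 0.91 at under 2.5 CPM in each library, and ppp3cca and PPP3CC were not called. The regulatory subunit gene PPP3R1 (ENSDARG00000069360) rose by 0.39 (± 0.09 SE and adjusted p = 0.00557 by limma), at 46.4 to 67.3 CPM. The other row named PPP3R1 was not called.

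Pannexins share the membrane topology of connexins but form channels to the outside of the cell. PANX3 (ENSDARG00000004627), known in mammals from bone and cartilage cells, had 60.4, 55.3 and 72.1 CPM at 4 dpa and 1.80, 1.67 and 2.29 CPM at 0 dpa. The rise of 4.46 (± 0.14 SE and adjusted p = 2.96e-07 by limma) was larger than that of any connexin or potassium channel gene. PANX1 was called as higher by 0.32 (0.0268), a call lost with quantile normalization and in 4 of the 6 fits without a library.

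**Figure D5:**
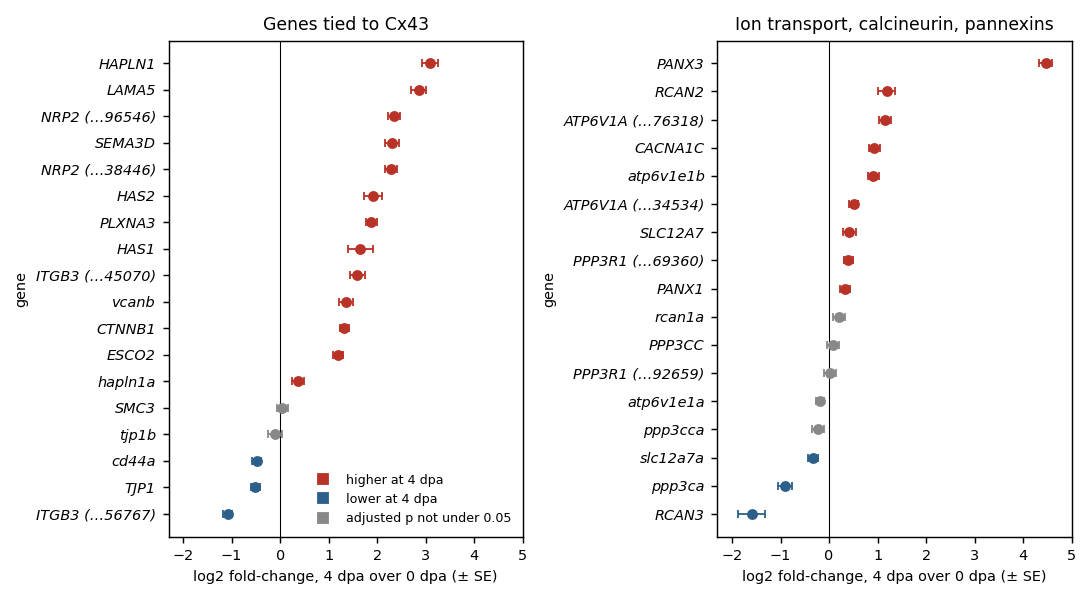
Log2 fold-change (4 dpa over 0 dpa, ± SE, 3 libraries a day) of 18 genes tied to cx43, left, and of 15 ion transport and calcineurin genes with 2 pannexins, right. Red marks genes called higher at 4 dpa, blue genes called lower and grey genes not called, and the values run from −1.60 for RCAN3 to 4.46 for PANX3.

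Markers of cell types moved between the days as well. In bulk tissue, fewer cells of a type and less RNA per cell cannot be told apart, and the part of these shifts in the results above was not tested. The counts that follow stand beside 62.1% of all genes called, 31.0% as higher and 31.2% as lower, and shares near these say nothing particular about a list. Of 8 epidermis markers 5 were called as lower and 1 as higher, with a summed level of 31033 to 36203 CPM at 4 dpa and 48142 to 56237 CPM at 0 dpa. Of these sums krt5 alone held 21185 to 26798 CPM at 4 dpa and 33519 to 40046 CPM at 0 dpa. The marker called as higher was krt8, at 0.64, and epcam and TP63 were not called. Of 6 Schwann cell and neuron markers 5 were lower, with 63.4 to 64.0 CPM at 4 dpa and 157 to 193 CPM at 0 dpa. Of 6 osteoblast markers 4 were higher and 1 lower, with 6154 to 6912 CPM at 4 dpa and 255 to 344 CPM at 0 dpa, of which COL10A1 alone held 5868 to 6562 CPM at 4 dpa and 152 to 225 CPM at 0 dpa. Of 12 myeloid and lymphoid markers 7 were lower and 2 higher, at 392 to 493 CPM at 4 dpa and 623 to 924 CPM at 0 dpa. Of 11 pigment cell markers 4 were lower and 2 higher, at 69.7 to 83.6 CPM at 4 dpa and 91.6 to 108 CPM at 0 dpa. Of 5 ionocyte markers 4 were lower, though ca2, which other cells also express, held the sum at 291 to 461 CPM at 4 dpa and 260 to 291 CPM at 0 dpa. All 10 cell division markers were higher, at 797 to 873 CPM at 4 dpa and 331 to 363 CPM at 0 dpa. Of 3 vessel markers 1 was higher, at 13.1 to 15.3 CPM at 4 dpa and 11.2 to 12.5 CPM at 0 dpa. The only muscle marker matched, ckma, was at 0.517 to 1.15 CPM at 4 dpa and 2.38 to 5.31 CPM at 0 dpa. None of these markers was at 0 in all libraries.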

How the data were processed

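Deposited mRNA values were log2(CPM + 1) for 16951 Ensembl genes, on library sizes that the authors had adjusted. The submitters' processing notes name Trimmomatic, RSEM, edgeR and the Zv9 assembly, without roles. The aligner, and whether counting used strand, are not given in the sources used here. Whole reads were recovered: once the worth of 1 read was found in each library, 100% of values under 1000 reads were whole within 0.1 read. Adjusted sizes were 1.08 to 1.10 times the recovered reads at 4 dpa and 0.855 to 0.908 times at 0 dpa.

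Of the identifiers, 13664 had a gene name, spelled here as in the name table. Each library's log2 values were first centred by a trimmed mean (30% of log ratios and 5% of levels trimmed), which moved them by −0.02 to 0.02. limma (version 3.58.1, R 4.3.3, lmFit and eBayes with trend) compared 3 libraries at 4 dpa with 3 at 0 dpa, with Benjamini-Hochberg adjustment over all genes, and was tested on simulated data. Adjusted p-values given in parentheses alone also come from limma. Python 3.11.15, pandas 2.3.3, NumPy 2.4.6, SciPy 1.17.1 and Matplotlib 3.10.9 did the rest. Replicate libraries differed by more than sampling noise (chi-square per degree of freedom at least 13.97). At 0 dpa, replicate 1 departed most, with 50.06 and 41.78 against replicates 2 and 3, which gave 14.54 against each other. The pairs at 4 dpa ran from 13.97 to 23.9. Each library is a separate pool of fins in the study's description, so p-values measure the spread between pools.

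Named with values were members with fin or stripe mutants, the 10 largest rises and 10 largest falls among called members without overlap, the 5 members with the most CPM, and the largest rise and fall of each pathway list. Other genes were named after their values were seen, to account for the members and to describe the lists, except that 2 members and 2 rows of a list, though counted, are not reported here by name or in the figures. Members and lists were chosen with earlier results of these data known, and families follow the gene names. Alternatives were no centring, scaling to total reads, quantile normalization, a pseudocount of 0.25 or 4 CPM, a mean of at least 1 CPM, limma-voom on recovered reads, a 2-fold minimum, a replicate block and leaving out each library. The small RNA libraries were not used here.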

Additional observations from a re-analysis of the deposited data

How the results depend on the processing

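No named gene reversed a call under any alternative. Of the 39 members, 23 stayed on their side of the threshold in every fit that tested them, the 2-fold minimum aside. The fit that required a mean of at least 1 CPM did not test all members. A fold-change of at least 2 on the log2(CPM + 1) scale left 5 potassium channel genes, 3 ion transport and calcineurin genes, 1 pannexin and 3683 of all genes. Without it there were 16, 12, 2 and 10532. The drop follows from the stricter rule and, for genes at low CPM, from the scale. Scaled to total reads, the median of the potassium channel genes was 0.0462, against −0.21, with the median of all genes moved to 0.24. Quantile normalization left 1 pannexin called. In the 6 fits that each left out a library, 13 to 15 potassium channel genes, 9 to 10 connexins and 1 to 2 pannexins were called. limma-voom on the recovered reads called 10505 genes, 14 potassium channel genes and 10 connexins. With a mean of at least 1 CPM required, 21 of the 25 potassium channel genes were tested and 13 called.

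Whether the replicate numbers pair the libraries could not be settled with 3 libraries a day. Correlations of deviations were 0.17, −0.02 and 0.15 for equal numbers and ran from −0.25 to 0.195 for unequal numbers. With the replicate block, 16 potassium channel genes and 10 connexins were called, and gja13.2 was the only member to lose its call (limma adjusted p = 0.0581). The 10 members with under 50 reads in each library are the least precise.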
